A study of Mus musculus with 4 samples.

Results

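The sinus macrophage receptor genes of the popliteal lymph node (PLN) are 10 genes whose products are carried or secreted by the macrophages that line the lymph node sinuses, and they were chosen by name from the 32287 genes counted in this series. The surface receptors are Marco, Cd209b, Siglec1, Cd163, Mrc1, Vsig4, Adgre1, Timd4 and Csf1r, and the secreted protein is Cd5l. Sections of frozen PLNs from male C57BL/6 mice were placed on 4 Visium capture areas, where a lattice of barcoded spots catches the RNA of the section above it and each caught molecule is counted by its own tag, the unique molecular identifier (UMI). The WT area held 10 PLNs of 5 wild-type mice aged 5.5 months. The Early area held 6 PLNs of 3 TNF-Tg mice aged 5.5 months with early arthritis, and each of the 2 Advanced areas held 6 PLNs of 3 TNF-Tg mice aged 8.5 to 9 months with advanced arthritis. TNF-Tg mice carry a human TNF transgene and develop inflammatory-erosive arthritis of the joints that drain to these nodes, and the transgene's own transcript was not analysed here. The nodes on an area were sectioned together and not separated in the counts, so an area is 1 sample that pools its mice. Advanced mice were older than WT and Early mice, and the effects of age and of disease stage cannot be told apart in comparisons with them.

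Lymph enters a node through afferent vessels into the subcapsular sinus, which lies beneath the capsule and over the B cell follicles, and it leaves through the medullary sinuses at the hilum. The macrophages of these sinuses take up particles, microbes and dying cells from the lymph. Subcapsular sinus macrophages are known for Siglec1 (CD169, a receptor for sialic acid) and for little of the F4/80 antigen, whereas medullary sinus macrophages carry Siglec1 together with F4/80, Marco, Cd209b and the mannose receptor. Both depend on CSF1 signalling and on signals from the lymphatic endothelium. Some of the genes are not particular to macrophages, since Marco, Mrc1 and members of the Cd209 family have also been described in the lymphatic endothelial cells of the medullary sinus, so that a level per spot does not name the cell it came from.

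The genes are scattered over the genome, and only Siglec1 and Mrc1, both on chromosome 2, share a chromosome. Marco (ENSMUSG00000026390), a scavenger receptor for bacteria and particles, spans bases 120474538 to 120505024 of chromosome 1 in GRCm38, and Cd209b (ENSMUSG00000065987, the C-type lectin SIGN-R1) lies on chromosome 8 from 3917655 to 3926844. Cd5l (ENSMUSG00000015854), a secreted scavenger-receptor-like protein of macrophages, lies on chromosome 3 from 87357881 to 87371073, Mrc1 (ENSMUSG00000026712, the mannose receptor) on chromosome 2 from 14229392 to 14332057, and Timd4 (ENSMUSG00000055546, a receptor for phosphatidylserine on dying cells) on chromosome 11 from 46810800 to 46844332. These 5 genes are the ones whose distribution between the rim and the interior of the tissue differed between Advanced and WT nodes in the test given further on, and their promoters are shown for that reason, each as the 250 bases before and the 50 bases after the RefSeq start on the strand of the gene (GRCm38.p6). Capitals mark the letters that matched a searched motif.
Marco, chr1:120504975-120505274, minus strand: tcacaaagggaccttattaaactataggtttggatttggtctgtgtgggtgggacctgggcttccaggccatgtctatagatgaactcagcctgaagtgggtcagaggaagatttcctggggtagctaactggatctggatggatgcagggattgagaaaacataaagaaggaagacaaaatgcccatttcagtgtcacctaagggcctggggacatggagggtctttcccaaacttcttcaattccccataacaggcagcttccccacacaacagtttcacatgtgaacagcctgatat
Cd209b, chr8:3926792-3927091, minus strand: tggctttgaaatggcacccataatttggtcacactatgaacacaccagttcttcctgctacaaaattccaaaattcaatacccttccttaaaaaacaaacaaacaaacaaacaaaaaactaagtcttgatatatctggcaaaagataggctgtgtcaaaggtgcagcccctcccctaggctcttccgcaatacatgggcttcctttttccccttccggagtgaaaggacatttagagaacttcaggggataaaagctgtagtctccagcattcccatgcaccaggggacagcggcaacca
Cd5l, chr3:87357631-87357930, plus strand: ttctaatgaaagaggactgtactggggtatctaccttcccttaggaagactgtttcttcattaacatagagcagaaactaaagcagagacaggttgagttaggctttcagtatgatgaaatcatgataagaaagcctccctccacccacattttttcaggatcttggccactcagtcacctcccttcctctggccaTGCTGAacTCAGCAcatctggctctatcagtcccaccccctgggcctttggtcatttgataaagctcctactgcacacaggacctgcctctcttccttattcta
Mrc1, chr2:14229164-14229463, plus strand: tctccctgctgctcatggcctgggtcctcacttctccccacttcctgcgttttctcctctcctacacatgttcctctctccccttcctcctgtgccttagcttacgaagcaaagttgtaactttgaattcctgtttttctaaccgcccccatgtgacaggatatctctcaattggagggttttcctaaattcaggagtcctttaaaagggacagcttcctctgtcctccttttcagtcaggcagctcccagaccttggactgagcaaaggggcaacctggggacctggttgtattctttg
Timd4, chr11:46810549-46810848, plus strand: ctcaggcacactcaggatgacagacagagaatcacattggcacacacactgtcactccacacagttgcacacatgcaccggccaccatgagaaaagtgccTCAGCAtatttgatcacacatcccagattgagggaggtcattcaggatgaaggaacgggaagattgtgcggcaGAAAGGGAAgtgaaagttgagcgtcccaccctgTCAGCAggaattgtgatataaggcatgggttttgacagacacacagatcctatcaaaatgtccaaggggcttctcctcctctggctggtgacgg

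Promoters were found for 7 of the 10 genes in the RefSeq table, which held none for Siglec1, Adgre1 or Csf1r. They were searched on both strands for 4 motifs of factors that act in macrophages: the PU.1 motif GAGGAAGT, found in 3.2% of 32851 promoters of the same length, the core TGCTGA of the site bound by MAF factors (19.5%), the interferon-stimulated element GAAANNGAA (8.56%) and the NF-kB motif GGGANTTCC (1.68%). The Cd5l promoter held the MAF core at bases 197 to 202 and, on the other strand, at bases 205 to 210, counted from its first base. In the Timd4 promoter the MAF core stood at bases 101 to 106 and 207 to 212 and the interferon-stimulated element at bases 174 to 182, and the 2 elements did not overlap. Vsig4 held 1 MAF core, and the promoters of Marco, Cd209b, Mrc1 and Cd163 held none of the 4 motifs in this window.

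The files held 13565628 UMIs in 6119 spots under tissue, from 1808678 UMIs on the WT area to 5180493 on the Early area. Depth followed position within the tissue. Spots at an edge of the tissue, with at least 1 of their 6 neighbouring positions free of tissue, are called the rim and had medians of 2113 to 5541 UMIs, whereas spots with tissue on all 6 sides, called the interior, had medians of 140.5 to 250.5 UMIs. The rim therefore held 79.3% of all UMIs on WT, 75.7% on Early, 47.9% on Advanced area 1 and 64.5% on Advanced area 2. Of the 580 interior spots on WT, 84 had at least 1000 UMIs. Whether shallow interior spots lay on node tissue or in gaps between nodes was not examined. The spots under tissue of the WT area, which held 10 nodes, formed 1 connected piece of 828 spots. The 6 nodes of the Early area lay in 4 pieces of at least 20 spots, those of Advanced area 1 in 1 piece and those of Advanced area 2 in 2. Whether nodes touched or gaps between them were counted as tissue was not examined. A node's own outer border counted as interior wherever spots of neighbouring nodes were connected. Levels are given as UMIs of a gene per 10000 UMIs of the area or zone, with 95% Poisson intervals that cover counting error only. Visium counts the 3′ end of a transcript once, and levels were not divided by gene length and are compared between areas and not between genes. In spots of mixed cells, fewer cells of a type and less RNA per cell cannot be told apart.

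Together the 10 genes took 61.8 of every 10000 UMIs on the WT area, 45.5 on Early, 32.5 on Advanced area 1 and 44.2 on Advanced area 2. Marco supplied 47.9% to 51.2% and Cd209b 18.4% to 24.2% of these UMIs on each area. Nearly all of the signal came from 8 of the genes. Vsig4, a receptor for complement fragments on resident macrophages, was read by 1 UMI in the whole series, in the rim of Advanced area 2, and a count of 0 on the WT area allows up to 0.0166 per 10000. Cd163, the scavenger receptor for haptoglobin and hemoglobin, had 3 UMIs on WT, 28 on Early, 15 on Advanced area 1 and 14 on Advanced area 2. Neither gene was resolved at this depth, although both are often used to mark tissue macrophages. For comparison, 25 macrophage identity genes together took 180.3 of every 10000 UMIs on WT, 185.3 on Early, 149.6 on Advanced area 1 and 154.5 on Advanced area 2. Such sums do not show which cells the UMIs of the members came from. None of the 25 was at 0 on any area. The sum is swayed by Lyz2, the lysozyme gene of macrophages and neutrophils, which stood at 23.4 on WT, 66.1 on Early, 43.7 on Advanced area 1 and 34.8 on Advanced area 2. Without Lyz2 the list summed to 156.9 on WT, 119.3 on Early, 105.9 on Advanced area 1 and 119.7 on Advanced area 2. Of its other 24 genes 19, 22 and 22 lay below WT on the 3 TNF-Tg areas. Spi1, the gene of the factor PU.1, stood at 1.38, 1.67, 1.33 and 1.47 per 10000 in the same order.

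Adgre1 and Mrc1 were the members most clearly lower in TNF-Tg nodes. Adgre1 encodes F4/80, the antigen that separates medullary from subcapsular macrophages. It took 1.1 of every 10000 UMIs on WT, 0.317 on Early, 0.352 on Advanced area 1 and 0.319 on Advanced area 2. Intervals of the 3 TNF-Tg areas overlapped each other and the WT interval, 0.953 to 1.26, lay above them. Mrc1 took 2.18 on WT, 0.656 on Early, 0.882 on Advanced area 1 and 0.997 on Advanced area 2. Here too the intervals of the Advanced areas overlapped, and that of Early, 0.588 to 0.730, lay below both.

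Marco and Cd209b were highest on WT as well, but their Advanced areas differed from each other. Marco took 30.4 of every 10000 UMIs on WT, 22.9 on Early, 16.6 on Advanced area 1 and 21.2 on Advanced area 2. Cd209b took 14.9, 9.64, 5.99 and 8.81 in that order. For both genes the distance from Early to Advanced area 2 was smaller than the distance between the Advanced areas, which differed 1.27-fold for Marco and 1.47-fold for Cd209b. Siglec1 took 1.06 on WT, 0.610 on Early, 0.562 on Advanced area 1 and 0.575 on Advanced area 2, with overlapping intervals on the 3 TNF-Tg areas. Cd5l was the least even member within a group. It took 3.83 of every 10000 UMIs on WT, 0.884 on Early, 0.876 on Advanced area 1 and 2.46 on Advanced area 2, so that Early and Advanced area 1 had overlapping intervals while the Advanced areas lay 2.81-fold apart.

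Timd4 and Csf1r did not share this order. Timd4 took 4.64 on WT, 5.34 on Early, 3.57 on Advanced area 1 and 5.36 on Advanced area 2, with WT between the Advanced areas. Csf1r, the receptor for CSF1 and IL-34 on which macrophages depend, took 3.65 on WT, 5.10 on Early, 3.58 on Advanced area 1 and 4.46 on Advanced area 2. Its lowest areas, WT and Advanced area 1, had overlapping intervals. The plot of levels by area shows the members in this arrangement.

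**Figure D1:**
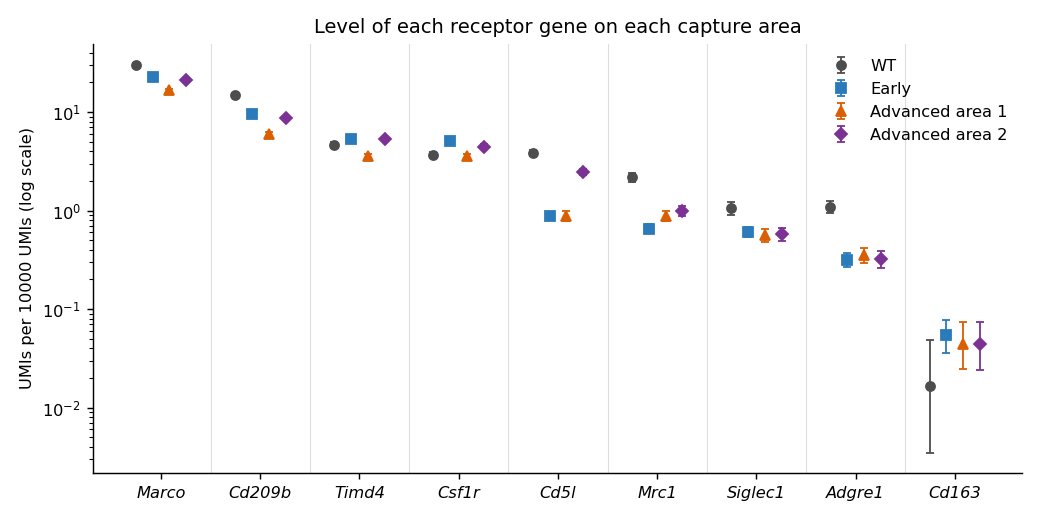
Level of each receptor gene as UMIs per 10000 UMIs (vertical axis, log scale) on the 4 capture areas, with bars for the 95% Poisson interval. The WT point is the highest for Marco, Cd209b, Cd5l, Mrc1, Siglec1 and Adgre1 and not for Timd4, Csf1r or Cd163, and the 2 Advanced areas part most for Cd5l. Vsig4, with 1 UMI in all, is not drawn.

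To compare conditions, UMIs were summed per area and tested by quasi-likelihood in edgeR, and p-values were adjusted by Benjamini-Hochberg over all 13102 genes tested with a threshold of 0.05. WT and Early had 1 area each, so the spread came from the 2 Advanced areas with 1 residual degree of freedom and from the trend over all genes, and a gene's own difference between the Advanced areas hardly entered its test. Lower in Advanced than in WT were 6 of the 9 members tested, where 1.34% of all genes tested were lower, and none was higher. The log2 difference was -1.82 for Adgre1 (standard error 0.23, adjusted p = 1.3e-12), -1.33 for Mrc1 (standard error 0.19, adjusted p = 2.9e-09), -1.31 for Cd5l (adjusted p = 1.7e-10), -1.12 for Cd209b (adjusted p = 2.1e-12), -1.0 for Siglec1 (adjusted p = 0.00059) and -0.80 for Marco (adjusted p = 5.9e-08), all from edgeR. The median log2 difference of the 9 members was -1.0, against 0.01 over all genes tested. Timd4 (-0.17), Csf1r (0.03) and Cd163 (1.28, with 3 UMIs on WT) did not pass the edgeR test, with adjusted p from 0.73 to 0.98.

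The members differed in how far these calls held. With DESeq2 in place of edgeR, Adgre1 (adjusted p = 0.0020) and Mrc1 (adjusted p = 0.0074) were the members that passed, where 0.191% of all genes were lower. When the 3 TNF-Tg areas were set together against WT, an arrangement chosen after seeing the data that lets their spread enter, Adgre1 (-1.83), Mrc1 (-1.46) and Siglec1 (-0.94) passed edgeR's test, where 0.557% of genes were lower, while Cd5l had an adjusted p of 0.083, Cd209b of 0.16 and Marco of 0.46. Cd5l also lost its edgeR call, with an adjusted p of 0.89, once a gene with an unusual spread was allowed to keep its own, a setting also chosen after seeing the data. In rim spots alone 5 members were lower in Advanced than in WT, Adgre1, Mrc1, Cd5l, Cd209b and Marco (0.736% of genes lower). In interior spots alone none passed edgeR's test (0.21% of genes lower), 3 of 8 had an unadjusted p under 0.05, and Marco stood at 0.03 and Timd4 at 1.00 on the log2 scale.

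Advanced and Early nodes were nearer to each other. Of the 9 members tested in the same edgeR fit, which shares its Advanced areas with the comparison above, Cd5l passed, at 0.84 on the log2 scale with a standard error of 0.19 and an adjusted p of 0.0025, where 0.496% of genes were higher. That call rested on Advanced area 2. Without that area the log2 difference was -0.10, and with a gene allowed its own spread the adjusted p was 0.99. Cd209b (-0.46, adjusted p = 0.095), Csf1r (-0.42, adjusted p = 0.30) and Marco (-0.35, adjusted p = 0.21) had the next lowest adjusted p values from edgeR and did not pass. Early and WT had 1 area each and were not tested. By ratio of their levels, WT stood 4.33-fold above Early for Cd5l, 3.47-fold for Adgre1, 3.32-fold for Mrc1, 1.73-fold for Siglec1, 1.55-fold for Cd209b and 1.33-fold for Marco, and Early stood 1.40-fold above WT for Csf1r and 1.15-fold for Timd4.

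Other cell types moved with these levels, and their part in the results was not tested. The 15 lymphatic endothelial markers, of which 1 was at 0 on each area, summed to 29.3 per 10000 on WT, 16.3 on Early, 21.8 on Advanced area 1 and 24.0 on Advanced area 2. Lyve1, a marker of sinus endothelium, stood at 3.15, 1.99, 1.15 and 2.05 in that order, and Prox1, the defining factor of lymphatic endothelium, at 0.210, 0.255, 0.243 and 0.219. The 10 follicle markers, none at 0, summed to 27.1 on WT and to 65.8, 47.2 and 41.1 on the TNF-Tg areas. The 6 red cell markers summed to 3.71 on WT and to 14.9, 13.1 and 10.96 on the TNF-Tg areas.

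The question of subcapsular against medullary sinus was approached first by position, with the rim set against the interior of the same area. These zones follow the outline of the tissue and were not matched to a named sinus. In WT tissue the receptor genes leaned to the rim, and in TNF-Tg tissue most leaned to the interior. Marco took 32.5 of every 10000 UMIs in the WT rim and 21.9 in the WT interior. On the TNF-Tg areas its rim and interior levels were 18.0 and 38.0 on Early, 11.9 and 20.9 on Advanced area 1, and 18.3 and 26.4 on Advanced area 2. The order was thus reversed on all 3 TNF-Tg areas. Cd209b had rim and interior levels of 16.4 and 9.31 on WT, 8.26 and 13.9 on Early, 5.00 and 6.90 on Advanced area 1, and 7.96 and 10.4 on Advanced area 2. Timd4 had rim and interior levels of 5.23 and 2.38 on WT, 4.80 and 6.99 on Early, 3.47 and 3.65 on Advanced area 1, and 4.77 and 6.43 on Advanced area 2. The interval of the log2 ratio took in 0 on Advanced area 1 for Timd4, from -0.24 to 0.09, and on no area for Marco or Cd209b.

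Mrc1 and Cd5l followed. The log2 ratio of rim to interior was 0.45 for Mrc1 on WT, and -0.95, -0.91 and -0.82 on Early and the Advanced areas. Cd5l had 0.76 on WT, -0.53 on Early, 0.01 on Advanced area 1 and -0.85 on Advanced area 2, so the Advanced areas did not lie together. Adgre1 had 0.86 on WT and -0.19, -0.34 and -0.29 on the others, with intervals that took in 0 on the 3 TNF-Tg areas.

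Siglec1 and Csf1r did not turn to the interior in this way. The rim and interior levels of Siglec1 were 1.08 and 0.963 on WT, 0.648 and 0.493 on Early, 0.711 and 0.426 on Advanced area 1, and 0.664 and 0.414 on Advanced area 2. The rim was the higher zone on 4 of 4 areas, and the intervals excluded a ratio of 1 on the 2 Advanced areas. Csf1r had a log2 ratio of 0.63 on WT, -0.11 on Early, 0.32 on Advanced area 1 and 0.37 on Advanced area 2, with an interval that took in 0 on Early and on no other area. Cd163, with at most 28 UMIs on an area, had 1.42, 0.71 and 1.72 on the TNF-Tg areas, with intervals that took in 0 on each.

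**Figure D2:**
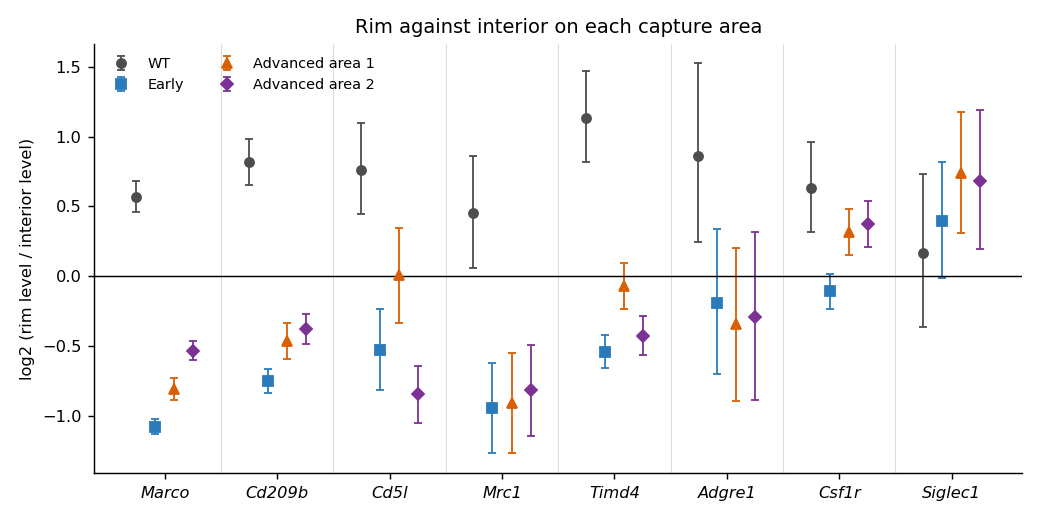
Log2 ratio of the rim level to the interior level (vertical axis) for 8 receptor genes on the 4 capture areas, with bars for the 95% counting interval and a line at 0, where the zones are equal. The WT points lie above 0 for all 8 genes, the TNF-Tg points of Marco, Cd209b and Mrc1 lie below it, and the points of Siglec1 lie above it on every area.

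Over the 4 areas, with the area as a block and 10998 genes tested with edgeR, Siglec1 was the member that passed, higher in the rim with a log2 difference of 0.59 and a standard error of 0.14 (adjusted p = 0.0093). It was 1 of 8 members tested, where 8.04% of all genes were called and 4.29% were higher in the rim. The call was lost with DESeq2 (adjusted p = 0.070), in spots of at least 1000 UMIs (adjusted p = 0.11 from edgeR) and when either Advanced area was left out (adjusted p = 0.081 and 0.089 from edgeR). Csf1r (0.36, adjusted p = 0.058) and Mrc1 (-0.50, adjusted p = 0.064) stood near the threshold in the edgeR test, and Csf1r passed under each of 3 other estimates of the spread, which were chosen after seeing the data. Without the WT area, Marco (-0.73), Mrc1 (-0.81), Cd209b (-0.45) and Cd5l (-0.43) were called lower in the rim, where 4.63% of genes were lower, and Siglec1 (0.68) higher, where 5.45% were higher. In spots of at least 1000 UMIs Marco and Mrc1 were lower in the rim, where 1.51% of genes were lower.

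The difference in this contrast between Advanced and WT was then tested as an interaction in the same counts. Lower in Advanced were 5 of 8 members, where 0.171% of the 12254 genes tested were lower. The difference in the log2 ratio of rim to interior was -1.41 for Timd4 (standard error 0.29, adjusted p = 0.0013), -1.33 for Mrc1 (standard error 0.30, adjusted p = 0.0069), -1.28 for Cd5l (adjusted p = 0.0069), -1.26 for Marco (adjusted p = 0.00096) and -1.26 for Cd209b (adjusted p = 0.0016), all from edgeR. Adgre1 had a difference of similar size, -1.20, with a larger standard error of 0.42 and did not pass (adjusted p = 0.30 from edgeR). Csf1r (-0.31) and Siglec1 (0.52) had adjusted p values of 0.82 and 0.75. All 5 stayed called in each of the 6 settings tested, though in 1 of them Cd5l lay only just under the threshold of 0.05. These settings were other estimates of the spread, total UMIs alone, and the 3 TNF-Tg areas taken as 1 group (0.163% of genes lower), also with total UMIs. The interaction was not run with DESeq2, without the filter on low counts, in deeper spots or with other rim borders. The Cd5l difference depended on which Advanced area was used, at -0.77 without Advanced area 2 and -1.64 without Advanced area 1. Neither of these could be tested. This edgeR fit too had 1 residual degree of freedom, and the WT side of the difference rested on 1 area whose nodes lay in 1 connected piece of spots. Between Advanced and Early, 0 of 8 members were called by edgeR, none of them had an unadjusted p under 0.05, and 0.0408% of genes were called.

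Markers of other cells differed between the zones in the same tissue. The lymphatic endothelial markers summed to 30.0 in the rim and 26.7 in the interior of WT, to 14.8 and 20.9 on Early, to 18.6 and 24.7 on Advanced area 1, and to 20.6 and 30.0 on Advanced area 2. Their sum thus changed order with the receptor genes. Prox1 and Stab2 changed order on each TNF-Tg area too. Lyve1 did not on Advanced area 1, where its rim and interior levels were 1.19 and 1.11, beside 3.39 and 2.25 on WT. In the interaction test 1 of the 15 was lower, Stab2 (-1.38, adjusted p = 0.0078 from edgeR), an endocytic receptor for hyaluronan on sinus endothelium that is also 1 of the related receptors examined here. The follicle markers summed to 27.0 in the rim and 27.5 in the interior of WT, to 70.5 and 51.3 on Early, to 55.8 and 39.2 on Advanced area 1, and to 47.5 and 29.4 on Advanced area 2. The part of either cell type in the results was not tested.

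Distance from the edge gave the same picture in finer steps. In WT tissue the members together took 66.9 per 10000 at the rim, 51.9 in spots 1 step inward, 22.5 at 2 steps and 15.6 at 3 steps or more. On the Early area they took 38.4, 63.9, 83.8 and 65.4 at the same distances. On Advanced area 1 the level stayed between 23.4 and 26.9 up to 2 steps and was 44.5 at 3 steps or more, and on Advanced area 2 it was 39.6, 39.1, 56.9 and 59.7. Marco reached 49.0 per 10000 at 2 steps on Early (interval 46.0 to 52.2), against 10.95 at 2 steps on WT (interval 8.80 to 13.4). Spots away from the rim were shallow, with medians of 49 to 318 UMIs over the layers, so each layer's value is a sum over many spots of few UMIs.

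**Figure D3:**
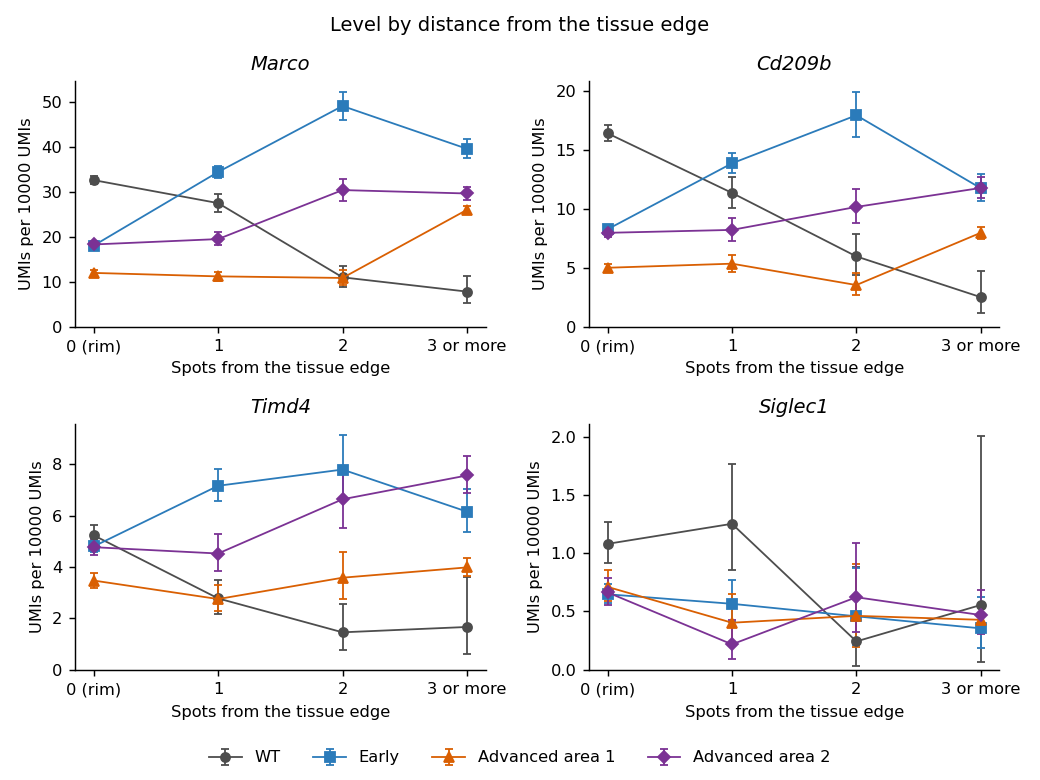
Level as UMIs per 10000 UMIs (vertical axes, starting at 0) of Marco, Cd209b, Timd4 and Siglec1 by the number of spots from the tissue edge (horizontal axis) on the 4 capture areas, with bars for the 95% Poisson interval. Marco, Cd209b and Timd4 are lower away from the edge on WT, Marco is higher at 3 spots or more than at the rim on the 3 TNF-Tg areas, and the Siglec1 intervals are wide beyond the rim.

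The rim was next divided by what it faced. Rim spots that touched a spot rich in follicle transcripts, without being rich in them, are called follicle-facing and stand in for the subcapsular sinus, which runs over the follicles. The remaining rim spots, other than the follicle-rich ones, served for comparison. Siglec1 was higher in the follicle-facing rim and Mrc1 was lower. The log2 ratio of follicle-facing to other rim for Siglec1 was 1.16 on WT, 0.42 on Early, 1.20 on Advanced area 1 and 0.39 on Advanced area 2, above 0 on 4 of 4 areas. Mrc1 had -0.28, -1.16, -0.54 and -1.21 in that order, below 0 on 4 of 4 areas. The follicle-rich spots, outside this contrast, held Siglec1 as well. Its levels in the follicle-facing rim and in follicle-rich spots were 1.99 and 0.912 on WT and 0.7215 and 0.7159 on Early. They were 1.09 and 0.637 on Advanced area 1 and 0.735 and 0.696 on Advanced area 2. In the edgeR test over 9199 genes the difference was 0.71 for Siglec1 (standard error 0.17, adjusted p = 0.015, where 0.913% of genes were higher) and -0.83 for Mrc1 (standard error 0.16, adjusted p = 0.0021, where 1.76% were lower).

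The other 6 members tested did not pass. Marco stood at 0.37 on WT, -0.40 on Early, -0.12 on Advanced area 1 and -1.23 on Advanced area 2, with Cd209b at 0.21, 0.03, -0.63 and -1.25, so neither had a common direction. Over the 4 areas the edgeR difference was -0.54 for Cd5l (adjusted p = 0.11), -0.44 for Cd209b (adjusted p = 0.15), -0.39 for Marco (adjusted p = 0.19), -0.48 for Adgre1, -0.18 for Timd4 and 0.28 for Csf1r. The Siglec1 call was lost with DESeq2 (adjusted p = 0.14), without WT (0.14), without Advanced area 1 (0.093) and with follicle-rich spots set as the top 10% in place of the top 20% (0.16), and the Mrc1 call was lost without Early (0.094), the last 4 from edgeR. When the follicle-rich rim spots were counted as follicle-facing, 7 of 8 members were called, Siglec1 higher and 6 lower. In that setting 541 of 9906 genes were higher and 7.88% were lower.

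The follicle-facing rim also differed in other cells. Of the 10 markers of capsule and fat, 9 were lower in it, of the 15 lymphatic endothelial markers 5 were lower and 1 was higher, and of the 10 follicle markers 8 were higher, which the choice of spots favours. Summed over the list, the lymphatic markers stood at 30.6 in the follicle-facing rim and 32.4 in the other rim of WT, and at 13.7 and 19.0, 16.2 and 26.7, and 18.6 and 27.5 on Early and the Advanced areas. Their part in the Mrc1 result was not tested.

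**Figure D4:**
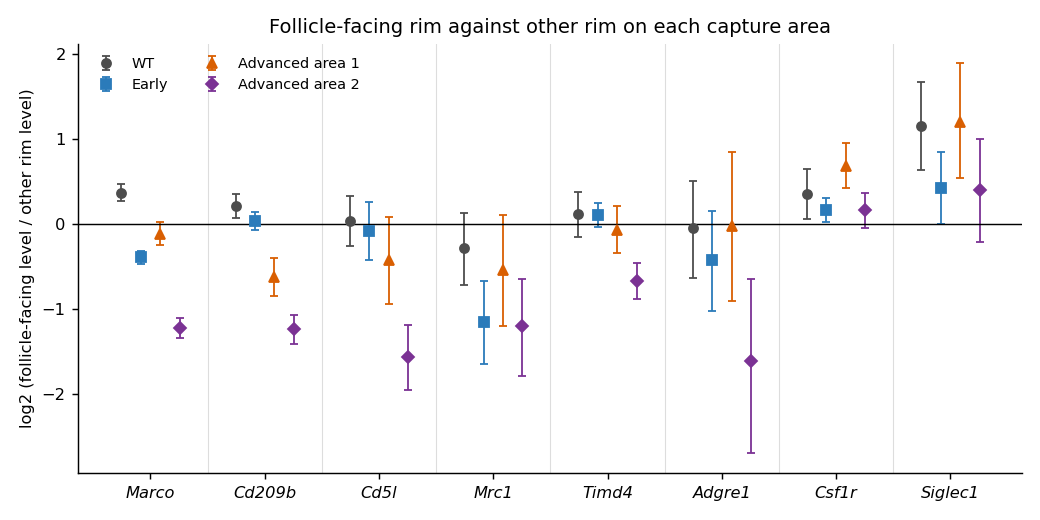
Log2 ratio of the level in the follicle-facing rim to that in the other rim (vertical axis) for 8 receptor genes on the 4 capture areas, with bars for the 95% counting interval and a line at 0, where the levels are equal. Siglec1 lies above 0 and Mrc1 below 0 on every area, and Marco, Cd209b and Cd5l spread widely, with Advanced area 2 lowest.

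Whether the genes were found in the same spots was examined in the 2057 spots with at least 1000 UMIs, each thinned to 1000 UMIs so that depth did not set the result. For each pair of members the spots holding both were counted against the number expected if the genes were independent within each area. Of the 45 pairs, 27 had at least 5 expected spots, and their median ratio was 1.31. The ratio was above 1 for 26 of them, up to 2.08. Pairs of other genes were not counted, so how far such ratios are particular to the members is not known. Marco and Cd209b shared 707 spots where 545.5 were expected, a ratio of 1.30 that ranged from 1.20 to 1.42 over the areas. The highest ratios were those of Cd5l, at 2.08 with Mrc1 (50 spots where 24.0 were expected), 1.57 with Cd209b and 1.5 with Timd4. A ratio cannot exceed 1 over the share of spots that hold the commoner gene. The ratios therefore do not rank how closely pairs went together. Marco, in 58.0% to 67.0% of the thinned spots of each area, is bounded the most. By mean Pearson r over the areas, Marco with Cd209b stood at 0.51 and Cd5l with Mrc1 at 0.13. Of the 50 spots of Cd5l and Mrc1, 27 lay on Advanced area 2, where the ratio was 2.56, and 12 on WT, where it was 1.52, while the other areas had under 5 expected spots each. In spots of at least 2000 UMIs thinned to 2000, the ratio of Cd5l with Mrc1 was 1.39, below 1 on its lowest area, and the highest pair was Siglec1 with Cd5l at 1.58.

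The place of Siglec1 among the pairs depended on the spots used. In spots thinned to 1000 UMIs it shared 63 spots with Marco where 63.0 were expected, a ratio of 1.00 that ranged from 0.627 to 1.34 over the areas, and 45 spots with Cd209b where 44.4 were expected, a ratio of 1.01. With Timd4 its ratio was 1.39, over 42 spots. Csf1r, which is common to macrophages of many places, had ratios of 1.15 with Marco and 1.17 with Cd209b. In interior spots alone the ratios of Siglec1 were 1.14 with Marco and 1.22 with Cd209b, in rim spots alone 0.901 and 0.867, and at 2000 UMIs 1.06 and 1.08, beside 1.06 for Csf1r with Marco. Without thinning Siglec1 with Marco stood at 1.11 and Marco with Cd209b at 1.12. Marco was then in 80.1% to 85.4% of the spots of each area, which holds both ratios near 1. The mean Pearson r in these unthinned spots was 0.36 for Siglec1 with Marco and 0.84 for Marco with Cd209b. The points of these counts share a library and a section, and the values are descriptions without a test. In interior spots alone the median ratio was 1.20, and in spots of at least 2000 UMIs it was 1.17.

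**Figure D5:**
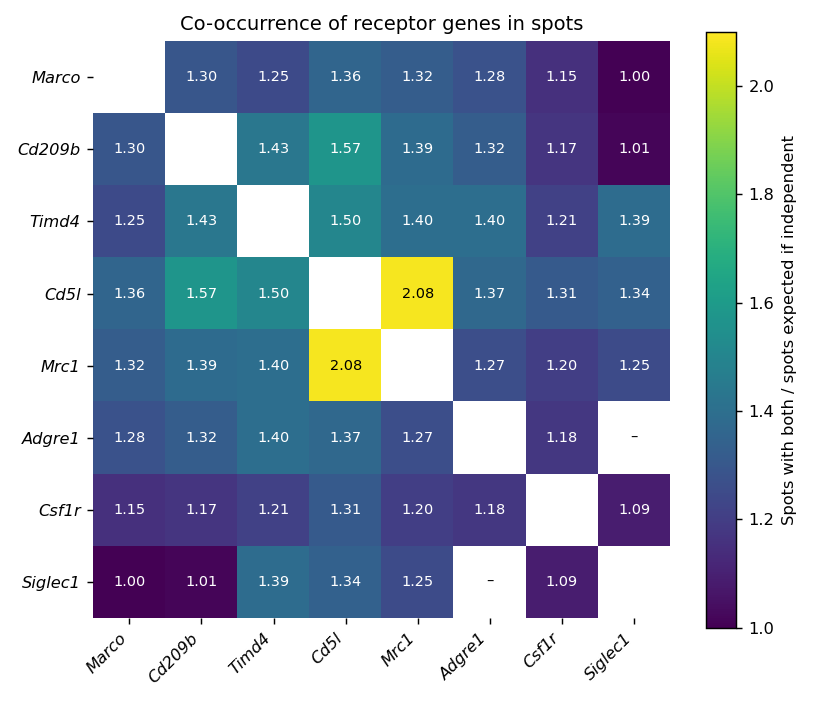
Number of spots holding both genes divided by the number expected if the genes were independent, for each pair of 8 receptor genes (color scale and printed value), summed over the 4 capture areas in spots thinned to 1000 UMIs; a dash marks a pair with under 5 expected spots. The highest value is 2.08 for Cd5l with Mrc1, and the values of Siglec1 with Marco and Cd209b are near 1 in these spots. Pairs that include a common gene such as Marco cannot reach the highest values.

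By correlation over the same spots, the genes most like the summed members were Ccl8 (mean Pearson r over the 4 areas 0.48), Apoe (0.44), Psap (0.44), Selenop (0.44), Ctsb (0.38), C1qb (0.34), C1qc (0.34), Grn (0.30), Itm2b (0.29) and C1qa (0.29), among 5308 genes. Ccl8 encodes a chemokine, C1qa, C1qb and C1qc the chains of complement C1q, and Ctsb, Psap and Grn lysosomal proteins. Cd209b was the gene most like Marco (r = 0.51, from 0.38 to 0.58 over the areas) and Marco the gene most like Cd209b, Cd5l, Mrc1 and Csf1r, while Cd209b was most like Timd4. Siglec1, with 881 UMIs in all, had no gene above a mean r of 0.097. Ccl8 stood at 25.5 per 10000 on WT, 12.5 on Early, 5.61 on Advanced area 1 and 9.99 on Advanced area 2. In the edgeR fits above it was lower in Advanced than in WT (-1.82, adjusted p = 8.3e-38) and than in Early (-0.76, adjusted p = 1.2e-05). With the TNF-Tg areas as 1 group against WT, its edgeR difference was -1.52 (adjusted p = 0.040).

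The wider receptor families were examined through a list of 41 related receptors, 40 of which were matched to a counted gene, among them scavenger receptors, C-type lectins, Siglecs and Fc receptors. Of the 37 tested, 8 were lower in Advanced than in WT and 2 were higher. The lowest were Cd209f (-2.88), Clec4n (-2.0), Cd209g (-1.97) and Fcgr1 (-1.68), and the higher ones were Adgre4 (1.47) and Cd33 (0.76). The Cd209 genes are close copies, and reads could have been divided between them, Cd209b included, in the counting. Of the 25 macrophage identity genes 13 were lower, led by Slc40a1 (-2.14), the iron exporter, Hmox1 (-2.02), which breaks down heme, Fcgr1 and C1qb (-1.24), and Lyz2 was higher (0.63). The medians were -0.43 for the related receptors and -0.67 for the identity genes, against 0.01 over all genes. Of 13 genes of the niche of sinus macrophages, such as their growth factors and receptors, Cxcl13 was higher (1.00) and none was lower.

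Few of these genes followed Siglec1 to the rim. Of the related receptors, Cd36 (0.87) and Colec12 (0.56) were higher in the rim than in the interior and Cd5 (-0.61) was lower. Of the identity genes, Lyz2 (0.84), Tyrobp (0.57) and Ctsd (0.43) were higher, and of the niche genes Cxcl13 (0.99) and Tnfsf11 (0.77) were higher and Csf2ra (-0.55) was lower. In the follicle-facing rim Cd22 (0.72) and Siglecg (0.69), Siglecs of B cells, were higher with Siglec1, and Cd209a (-1.36) and Stab2 (-0.78) were lower with Mrc1. C1qc (-0.59) was lower there, and Lyz2 (0.52) and Cxcl13 (0.89) were higher. Cd22 and Cxcl13 are also among the follicle markers that set the follicle-rich spots, so the choice of spots favours their higher levels.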

How the data were processed

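Counts of UMIs per gene and spot were deposited by the authors, who made them with Space Ranger 1.1.0 on the mouse genome mm10 (GRCm38) and kept the spots under tissue. The counts carry no normalization. Here they were summed per capture area and zone (rim, interior, layer, follicle-facing or other rim), and sums were tested with edgeR 4.0.16 (quasi-likelihood, TMM, filterByExpr, R 4.3.3), with DESeq2 1.42.0 as an alternative. The edgeR fits of zones, of whole areas and of the follicle-facing rim were also run on simulated counts. DESeq2 and the interaction fit were not. Benjamini-Hochberg adjustment ran over all genes tested. Zone fits had the area as a block, and condition fits used 4 areas in 3 groups. Areas were the replicates. In the zone fits p-values draw on the spread between areas and on the trend over all genes. The edgeR condition and interaction fits had 1 residual degree of freedom, and their spread came from the trend over all genes. Their p-values therefore do not measure a gene's own spread between areas. Follicle-rich spots had at least 500 UMIs and lay in the top 20% of their area by follicle markers. Intervals are 95% and cover counting error only. Of 6119 spots, the 3110 distinct barcodes are array positions, and 249 occur on all 4 areas. The members and gene lists were chosen with earlier results of these data known. Named were all members, at most the 4 largest changes each way per list among genes passing the test, the 10 genes most like the members, and at most 3 markers of other cell types. Changes are relative to the bulk of genes. Scaling by total UMIs alone moved the median of all genes by over 0.1 on the log2 scale in Advanced against WT. Alternatives changed the test, scaling, filter, zone borders, spot depth and areas used, and not every comparison had each of them.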

Additional observations from a re-analysis of the deposited data

Results flagged for a closer look

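The contrast between rim and interior differed between groups for 5 members. For Advanced minus WT the difference in the log2 ratio was tested as an interaction and passed, at -1.26 for Marco, -1.26 for Cd209b, -1.28 for Cd5l, -1.33 for Mrc1 and -1.41 for Timd4. For Early minus WT the same genes had every area of one group on the opposite side of 0 from the other, with differences of -1.65 for Marco, -1.57 for Cd209b, -1.29 for Cd5l, -1.40 for Mrc1 and -1.68 for Timd4, and the difference was not tested since each group had 1 area.

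Along the rim, Marco lay higher in the follicle-facing spots of WT and lower in those of Early, a difference of -0.76 in the log2 ratio, and Cd209b lay higher in those of WT and lower in those of both Advanced areas, a difference of -1.15. Neither difference was tested.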

How the results depend on the processing

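WT and Early had 1 area each, interior spots were shallow, and nodes were not separated, so depth and design limit the interior values and every comparison of conditions. The difference in the rim contrast between Advanced and WT kept its 5 members in each of the 6 settings tested, Cd5l only just in 1 of them. Those settings did not include DESeq2, the absence of a filter, deeper spots or other rim borders. The Cd5l value of this difference, -1.28, moved to -0.77 with Advanced area 2 left out and to -1.64 with Advanced area 1 left out, where no test could be run. The causes of the changes below were not tested. The number of genes differing between rim and interior, 884 of 10998, was 420 with DESeq2 and 1065 of 18769 without a filter on low counts. It was 564 and 441 in spots of at least 500 and 1000 UMIs, 478 with a rim of 2 layers and 279 to 1136 with 1 area left out. Under the other estimates of the spread it was 853 to 915. The 1 member called became 0 with DESeq2 and 4 without the filter. It became 2 with total UMIs alone, in spots of at least 500 or 1000 UMIs, with a rim of 2 layers and under each other estimate of the spread. With 1 area left out it became 0 to 5, 0 without either Advanced area and 5 without WT. With total UMIs alone 292 genes were higher and 691 lower in the rim, against 472 and 412, 165 higher and 129 lower in Advanced than in WT, against 96 and 176, and 89 higher and 45 lower than in Early, against 65 and 87. The median log2 difference of all genes in Advanced against WT was 0.13 with total UMIs alone, against 0.01 in the main fit.

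The 272 genes of Advanced against WT were 38 with DESeq2, 126 in rim spots, 40 in interior spots, 100 with the TNF-Tg areas as 1 group, and 126 and 13 in the rim and interior of that group. The 6 members became 2 with DESeq2, 0 in interior spots, 3 with the TNF-Tg areas as 1 group and 0 in the interior of that group. The 152 genes of Advanced against Early were 7 with DESeq2 and 169 of 13073 with immunoglobulin genes left out. They were 18 in rim spots, 36 in interior spots and 91 in spots of at least 1000 UMIs. The 1 member became 2 with immunoglobulin genes left out. It became 0 with DESeq2, in these 3 sets of spots and under both robust estimates of the spread. The 246 genes of the follicle-facing rim, of 9199 tested, were 58 with DESeq2 and 342 of 17635 without a filter. They were 364 of 9806 with the top 10% and 1322 of 9906 with follicle-rich rim spots counted as facing. With 1 area left out they were 76 to 259 (76 without Early, 157 without Advanced area 2). The 2 members became 1 with DESeq2, 5 without a filter, 4 with the top 10% and 7 with follicle-rich rim spots counted. With 1 area left out they became 1 to 3 (1 without Early or Advanced area 1). The 5 genes whose rim contrast differed between Advanced and Early were 2 and 1 under the edgeR 4 estimates of the spread. The median co-occurrence ratio, 1.31, was 1.20 in interior spots and 1.17 at 2000 UMIs.

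Signs turned as follows. For rim against interior, Timd4 was -0.059 with total UMIs, -0.074 and -0.11 in spots of at least 500 and 1000 UMIs, -0.057 with 2 layers and -0.27 to 0.20 with 1 area left out (-0.27 without WT). Adgre1 was -0.0062, -0.013, -0.094, -0.21 and -0.19 to 0.20 in the same settings, Cd5l -0.43 to 0.16 with 1 area left out (0.16 without Advanced area 2) and Cd209b -0.45 to 0.045 (0.045 without Early). For Advanced against WT, the interior values were 0.031 for Marco and 1.00 for Timd4, and with the TNF-Tg areas as 1 group 0.30 for Marco, 0.086 for Cd209b and 1.18 for Timd4. With 1 area left out Timd4 was -0.51 to 0.11 (0.11 without Advanced area 1) and Csf1r -0.16 to 0.19 (-0.16 without Advanced area 2), and the called Cd5l value lay at -2.25 without Advanced area 2 and -0.74 without Advanced area 1. For Advanced against Early, Siglec1 was 0.018 in rim spots, Cd5l -0.10 without Advanced area 2 and 1.41 without Advanced area 1, and Adgre1 -0.011 without a filter, -0.056 without Advanced area 1 and 0.062 without Advanced area 2, -0.085 in rim spots and -0.0050 in spots of at least 1000 UMIs. In the follicle-facing rim Timd4 was -0.28 to 0.022 with 1 area left out (0.022 without Advanced area 2) and Csf1r -0.0018 with follicle-rich rim spots counted. The Cd5l difference in the rim contrast between Advanced and Early was 0.013 under both edgeR 4 estimates, 0.041 with total UMIs 0.51 without Advanced area 2 and -0.37 without Advanced area 1. The other estimates of the spread and the TNF-Tg areas as 1 group were chosen after seeing the data. The zone contrast was tested with each area as its own block. The areas of different conditions held different mice and formed no pairs.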
